A study of Xenopus laevis with 11 samples.

Results

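The narrow H3K4me3 peaks without p300 were 3770 short intervals of the early gastrula genome of the frog Xenopus laevis, out of 22191 H3K4me3 peaks on the L and S chromosomes and 24948 in the whole series-wide list. They were chosen by measured values: a width from 50 bp to under 600 bp in the series-wide H3K4me3 list, and no overlap with a peak of the series-wide p300 list. They made up 17.0% of the H3K4me3 peaks on these chromosomes (95% Wilson interval 16.5 to 17.5%), but 4.23% of the bases that H3K4me3 covered there. Among all narrow peaks, 82.8% (81.7 to 83.9%) had no p300 peak and the other 784 had one. These shares follow from the rule and are given as a description.

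The material was whole embryos at Nieuwkoop-Faber stage 10.5, fixed for 30 minutes in 1% formaldehyde in pools of 35 to 90. Chromatin was precipitated with an antibody against H3K4me3 or p300, and 2 replicates of each target had a deposited peak list. The other 7 samples (2 replicates each of H3K4me1, H3K36me3 and RNA polymerase II, and 1 input) were not analysed here. A whole embryo mixes the germ layers, so a peak found in few cells and a weak peak found in all cells cannot be told apart, and the lists hold no signal by which to rank peaks.

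Trimethylation of lysine 4 on histone H3 is deposited around the start sites of genes that are transcribed or poised. In vertebrates it usually spreads over several nucleosomes on either side of a start site, so that a promoter gives a peak wider than the intervals described here. The acetyltransferase p300 is a coactivator brought to promoters and enhancers by transcription factors. Stage 10.5 follows the onset of zygotic transcription, at the time when gastrulation movements begin.

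A series-wide peak is the stretch that a replicate 1 peak and a replicate 2 peak share: each of the 24948 series-wide H3K4me3 intervals was identical to such an intersection. An interval could therefore be narrow because both replicates gave a narrow peak, or because the narrow peak of 1 replicate met a wide peak of the other. Both kinds were present in nearly equal number. For 1901 of the 3770 intervals, or 50.4% (48.8 to 52.0%), both replicate peaks were under 600 bp. For 1516, or 40.2% (38.7 to 41.8%), the replicate 1 peak was 600 bp or wider and the replicate 2 peak was not. The opposite arrangement was seen for 219 (5.81%), and the last 134 (3.55%) were the overlapping ends of peaks that were wide in both replicates. Replicate 1 thus gave the wide partner far more often than replicate 2. Its peaks were the wider ones behind other H3K4me3 peaks too. Peaks without p300 of 600 bp to under 2000 bp, 5 to 50 kb from other H3K4me3, had replicate medians of 1441 and 1203 bp.

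The median width was 301 bp (quartiles 212 and 448 bp). The replicate 1 peaks behind the intervals had a median of 547 bp (quartiles 325 and 869 bp), and the replicate 2 peaks of 349 bp (quartiles 252 and 508 bp). Where both replicate peaks were narrow, the medians were 341 bp in replicate 1 and 284 bp in replicate 2. Where only the replicate 1 peak was wide, they were 972 bp and 409 bp. The replicate 2 peak lay wholly inside the replicate 1 peak for 2351 intervals, or 62.4% (60.8 to 63.9%), and the replicate 1 peak inside the replicate 2 peak for 262, or 6.95%. For the remaining 1157, or 30.7%, each peak overhung the other at 1 end. No interval had the same start and end in both replicates.

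**Figure D1:**
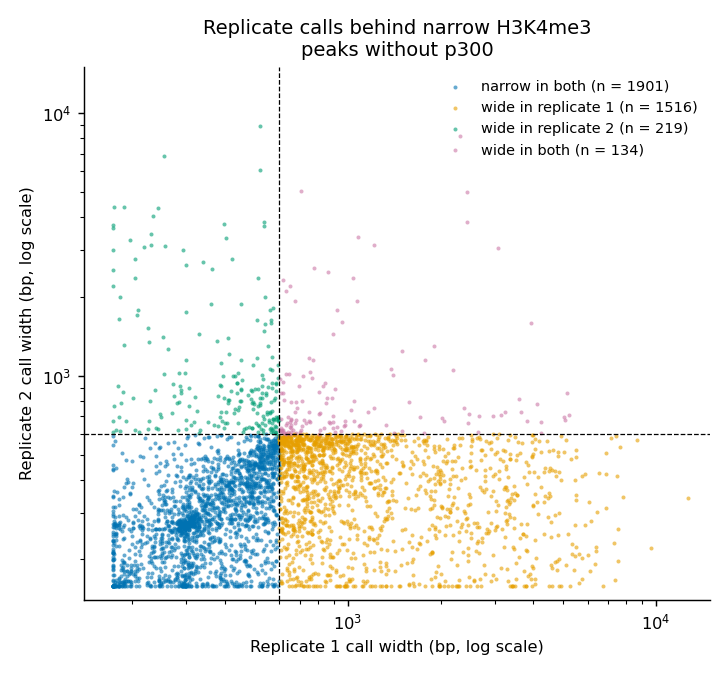
Width of the replicate 1 peak (x axis, bp, log scale) against the replicate 2 peak (y axis, bp, log scale) for each of the 3770 narrow peaks without p300, with dashed lines at 600 bp. The 1516 intervals that were wide in replicate 1 alone fill the lower right, and a dense group stands within the 1901 that were narrow in both.

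The replicate peaks behind the narrow intervals matched less closely than those behind wider ones. The shared stretch was a median of 58.7% of the union of the 2 replicate peaks (quartiles 32.5 and 80.2%). It was 79.8% for the 10745 medium peaks without p300 (600 bp to under 2000 bp) and 86.7% for the 2045 broad ones (2000 bp or wider). A shorter shared stretch favours a place in the narrow class, so this difference is in part built into the rule. Among intervals narrow in both replicates the median was 74.9%. For the 784 narrow peaks with p300 it was 55.0%, so a low shared part was not particular to narrow peaks that lack p300.

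The peaks of each replicate that fulfilled the same width and p300 rule recurred unevenly. Of 6645 narrow peaks without p300 in replicate 1, 31.7% (30.6 to 32.9%) overlapped a replicate 2 peak of any width, whereas 90.9% (90.4 to 91.3%) of the 14982 wider ones did. Of 5107 narrow peaks without p300 in replicate 2, 67.3% (66.0 to 68.5%) overlapped a replicate 1 peak, against 98.0% (97.8 to 98.3%) of 13302 wider ones. Recurrence was lower among the narrowest peaks. In replicate 1 it was 16.4% (14.4 to 18.6%) for peaks under 200 bp and 48.2% (45.0 to 51.5%) for those from 500 bp to under 600 bp. In replicate 2 the same classes gave 52.5% (49.5 to 55.5%) and 81.4% (78.5 to 84.0%). Replicate 1 held more narrow peaks and fewer of them recurred.

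Narrow peaks that did hold p300 recurred in replicate 2 at a higher share, 88.6% (86.2 to 90.6%) of 831. In replicate 1 the share was 31.7% (29.2 to 34.3%) of 1247, and its interval covers the value without p300. The sets differ in width, and by width class replicate 1 gave lower shares with p300 than without in each class of 100 bp. They were 11.0% against 16.4% under 200 bp, 18.7% against 25.7% from 200 bp, 35.7% against 38.0% from 300 bp, 34.9% against 37.8% from 400 bp and 44.7% against 48.2% from 500 bp. The Wilson intervals overlap in each of these classes except that from 200 bp. Wider replicate 1 peaks had the same order. From 600 bp to under 1000 bp the shares were 62.0% (59.1 to 64.9%) with p300 and 72.1% (70.6 to 73.5%) without. From 1000 bp to under 2000 bp they were 89.4% (88.1 to 90.7%) and 96.0% (95.5 to 96.4%). In replicate 2 the share was higher with p300 in each class.

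The widths of the replicate peaks were not spread evenly. In replicate 1, 97 of the peaks behind the intervals were from 170 bp to under 180 bp wide, next to the smallest width in that list, 173 bp. A higher maximum of 134 lay between 300 and 310 bp. In replicate 2, 159 had the smallest width in the list, 159 bp, and the second maximum of 189 lay between 270 and 280 bp. Both replicates thus had a favoured width a little over 100 bp above their smallest. At the smallest width in both replicates at once stood 10 intervals.

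**Figure D2:**
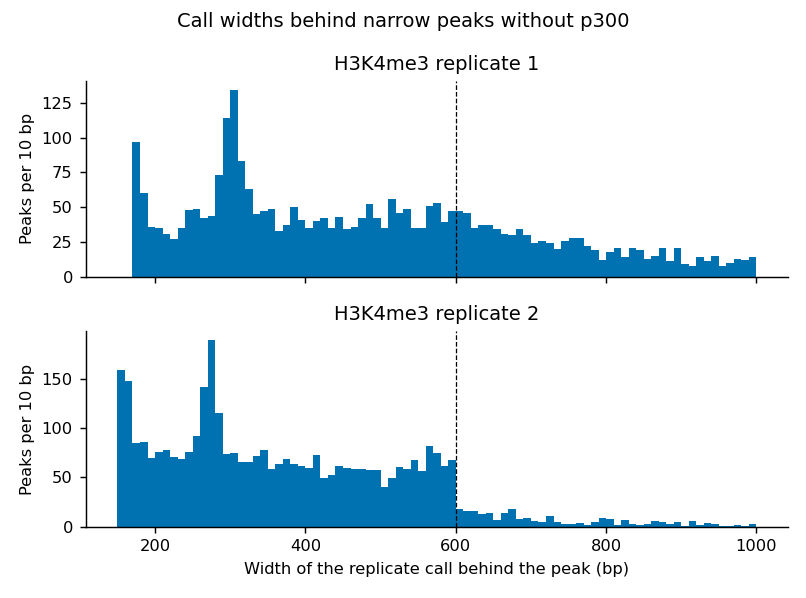
Number of narrow peaks without p300 (y axis, per 10 bp) by the width of the replicate peak behind them (x axis, bp, shown up to 1000 bp), for H3K4me3 replicate 1 above and replicate 2 below, with a dashed line at 600 bp. A maximum of 134 stands at 300 to 310 bp in replicate 1 and of 189 at 270 to 280 bp in replicate 2.

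The intervals at the favoured width were picked from the widths after these had been seen, as those with a replicate 1 peak from 280 bp to under 330 bp and a replicate 2 peak from 250 bp to under 290 bp. There were 216. Their replicate peaks were centred nearly on each other, with a median offset of 3 bp (quartiles 1 and 6.63 bp), compared with 33.5 bp (quartiles 12.5 and 64.5 bp) for the other 1685 intervals that were narrow in both replicates. The replicate 2 peak lay inside the replicate 1 peak for 189 of the 216. The chosen ranges favour a wider replicate 1 peak, so this follows in part from the choice. The ranges also limit how far off centre a replicate 2 peak inside a replicate 1 peak can lie. The small offset therefore follows in part from the choice too. The 3 examples given here were picked for the smallest offset, which was 0 bp. One was the interval on chromosome 3L from 4522750 to 4523029, where the replicate 1 peak ran from 4522745 to 4523034 and the replicate 2 peak from 4522750 to 4523029. Another was on 5S from 136433665 to 136433933, where the replicate 1 peak, from 136433648 to 136433950, overhung by equal lengths at both ends. On 1S, from 95304272 to 95304554, the replicate peaks were 285 and 283 bp wide. Of the 216, 36 (16.7%, 12.3 to 22.2%) had a series-wide p300 peak within 10 kb, compared with 24.7% (22.7 to 26.9%) of the other intervals narrow in both. These 216 were found on all 18 chromosomes, 120 of them on L and 96 on S, but not evenly. The counts ranged from 4 on 7S and 9_10L to 19 on 3L and 6L. On 6L, 6S and 3L together lay 54 of the 216 and 303 of the other 1685.

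The intervals cut from the widest replicate peaks were extremes. Where only the replicate 1 peak was wide, its median was 972 bp. The widest replicate peak behind any interval was on chromosome 1S, where a replicate 1 peak of 12731 bp, from 126978863 to 126991593, met 4 separate replicate 2 peaks. One of these, of 343 bp, gave the interval from 126983818 to 126984160. A series-wide p300 peak lay 0.024 kb from its edge. On 6L, a 9615 bp replicate 1 peak from 108707505 to 108717119 held the interval from 108716125 to 108716345, near its end. On 8L the wide partner was in replicate 2, with a peak of 8900 bp from 1338556 to 1347455, and the interval from 1346953 to 1347455 was its last 503 bp. In each of these 3 places, 1 long peak of 1 replicate stood against several shorter peaks of the other.

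In 442 intervals, or 11.7% (10.7 to 12.8%), a replicate peak behind the interval met more than 1 peak of the other replicate. The share was 3.72% (3.38 to 4.10%) in medium and 5.38% (4.48 to 6.44%) in broad peaks without p300. Narrow peaks with p300 had 9.18% (7.36 to 11.4%), which overlaps the share without p300. Neighbouring H3K4me3 peaks were at least 693 bp apart in the replicate 1 list and 637 bp apart in the replicate 2 list, so a peak under 600 bp cannot meet more than 1 peak of the other list, and all 442 had a wide replicate peak.

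The place of a narrow interval inside a wide replicate 1 peak was read from 724 intervals with a replicate 1 peak of 1000 bp or wider and a replicate 2 peak under 600 bp. Each wide peak was divided by distance from its nearer edge into 5 equal zones. When the wide peak met several replicate 2 peaks (359 intervals), 58.5% (53.3 to 63.5%) of the interval centres lay in the outermost zone. Separate peaks within 1 long peak cannot all be central, so this share follows in part from how these were picked. When it met 1 only (365 intervals), 8.49% (6.05 to 11.8%) lay in the outermost zone, 33.4% (28.8 to 38.4%) in the middle zone and 17.3% (13.7 to 21.5%) in the innermost. The centre of an interval wholly inside a wide peak cannot lie at its edge. The low share in the outermost zone therefore follows in part from the widths, and no central placement is read from it.

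The intervals lay close to other H3K4me3 peaks. Their median gap to the nearest other series-wide H3K4me3 peak was 14.1 kb (quartiles 2.45 and 56.7 kb). It was 28.7 kb (quartiles 10.7 and 64.3 kb) for medium peaks without p300 and 26.8 kb (quartiles 10.0 and 58.5 kb) for broad ones. On each of the 18 chromosomes the median was lower for the narrow intervals than for the medium peaks. Within 5 kb of another H3K4me3 peak lay 34.1% (32.6 to 35.7%) of the narrow intervals, 14.6% (13.9 to 15.3%) of the medium and 15.6% (14.1 to 17.2%) of the broad peaks. No test was run on this or the later comparisons between width classes, because peaks are not replicates and the replicate lists themselves entered the rule.

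Closeness to H3K4me3 was not particular to narrow peaks without p300. The 784 narrow peaks that held p300 lay closer still, with a median gap of 8.46 kb and 39.2% (35.8 to 42.6%) within 5 kb.

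Part of the closeness came from wide peaks that met several peaks of the other replicate. Among the 1869 intervals with a wide replicate peak, 43.7% (41.4 to 45.9%) lay within 5 kb of another H3K4me3 peak, and 24.8% (22.9 to 26.8%) of the 1901 narrow in both did. All 442 intervals whose replicate peak met several others were within 5 kb, since the pieces of such a peak are each other's neighbours. The intervals with a wide replicate peak that met 1 peak only numbered 1427, and 26.2% (24.0 to 28.6%) of them lay within 5 kb, which overlaps the share of those narrow in both. Without the 442, the share over all intervals was 25.4% (23.9 to 26.9%) and the median gap 20.1 kb, which is still shorter than the 28.7 kb of the medium peaks. The 400 medium peaks whose replicate peak met several others were kept in the medium values. Intervals narrow in both replicates were more often within 5 kb of another peak than the 14.6% of medium peaks, but not more often remote at a limit of 50 kb, with 32.3% (30.2 to 34.4%) and 32.1% (31.3 to 33.0%). Over 100 kb away lay 17.0% of them and 14.1% of medium peaks, while from 50 to 100 kb the order was the other way, with 15.3% and 18.04%. From 20 to 50 kb the shares were 19.0% and 29.1%.

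**Figure D3:**
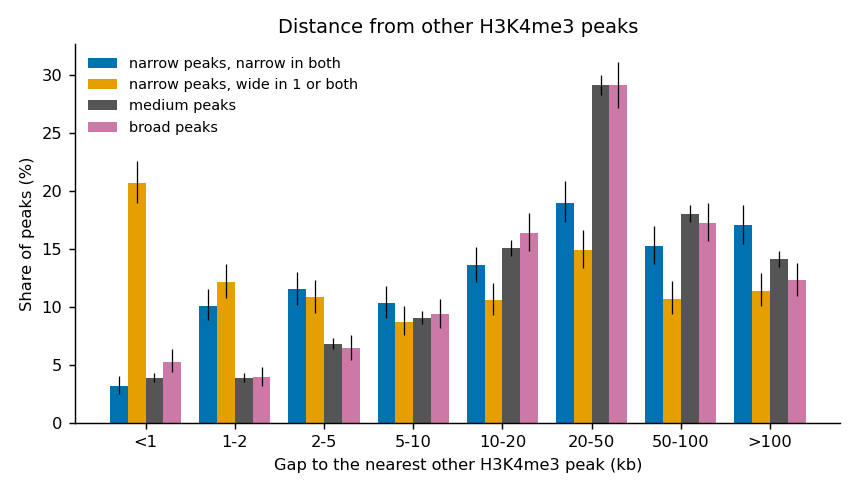
Share of peaks (y axis, %, bars with 95% Wilson intervals) by the gap to the nearest other series-wide H3K4me3 peak (x axis, kb) for the narrow peaks without p300, divided by their replicate peaks, and for medium and broad peaks without p300. Of the narrow peaks with a wide replicate peak, 20.7% lay under 1 kb away, and of those narrow in both replicates 3.16%.

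The nearest H3K4me3 neighbour was 600 bp or wider for 75.2% (73.8 to 76.5%) of the intervals, while such peaks made up 79.3% of the list. It was another narrow peak without p300 for 21.2% (19.9 to 22.5%), against 17.0% in the list. The neighbour held p300 in 26.3% (24.9 to 27.7%), close to the 25.2% in the list. Among the 1287 intervals with a neighbour within 5 kb, 32.2% (29.7 to 34.8%) of the neighbours held p300.

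The most remote intervals narrow in both replicates lay in long stretches without H3K4me3. That on chromosome 4S from 37274600 to 37274897 was 1456 kb from the nearest other series-wide H3K4me3 peak, with replicate peaks of 383 and 298 bp. The next, on 8L from 106660756 to 106661115, was 1008 kb away, with replicate peaks of 360 and 537 bp. That on 2L from 129069491 to 129069694 was 726 kb away, with replicate peaks of 305 and 204 bp. Their nearest series-wide p300 peak was 382, 550 and 284 kb away, in that order. The p300 replicate 2 list had a peak closer by, at 5.98, 32.6 and 9.19 kb.

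Although no interval overlapped a series-wide p300 peak, p300 was often nearby. A series-wide p300 peak lay within 10 kb of 1222 intervals, or 32.4% (30.9 to 33.9%), compared with 17.7% (17.0 to 18.4%) of medium and 27.3% (25.4 to 29.3%) of broad peaks without p300. The share was above that of the medium peaks on 18 of 18 chromosomes. The median gap to p300 was 32.0 kb (quartiles 5.07 and 101 kb), 46.5 kb for medium and 27.9 kb for broad peaks. The value depended on the p300 list: with p300 replicate 1 alone as both the rule and the target it was 18.7 kb, and with the larger replicate 2 list alone it was 10.4 kb.

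Here too the kinds of interval differed. Of those with a wide replicate peak, 41.1% (38.9 to 43.4%) had p300 within 10 kb, and of those narrow in both 23.8% (22.0 to 25.8%). Part of the p300 lay inside the wide peak itself, beside the shared stretch. For 354 intervals (9.39%, 8.50 to 10.4%) a series-wide p300 peak fell in the union of the 2 replicate peaks, 320 of them among the 1869 with a wide replicate peak. Such intervals count as free of p300 because the intersection left the p300 site out. Among the 3416 with no p300 in the union, 25.4% (24.0 to 26.9%) had p300 within 10 kb. On this footing the kinds were closer, at 29.0% (26.8 to 31.3%) with a wide replicate peak and 22.4% (20.6 to 24.4%) narrow in both.

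The flanks showed the same order in both p300 libraries. In the first kb outside the intervals, p300 replicate 1 gave 61.3 peak centres per Mb (Poisson 95% interval 55.8 to 67.1) and replicate 2 gave 78.7 (72.5 to 85.3). Medium peaks without p300 had 20.1 (18.3 to 22.1) and 35.7 (33.2 to 38.3), and the mean over the chromosome spans was 12.5 and 21.9. Intervals with a wide replicate peak had the highest values, 84.8 (75.7 to 94.7) and 108.1 (97.8 to 119). Those narrow in both had 38.2 (32.2 to 44.9) and 49.7 (42.9 to 57.3). Broad peaks without p300 had 27.1 (22.3 to 32.7) and 47.9 (41.4 to 55.1). In each p300 replicate their Poisson interval overlaps that of the narrow-in-both kind. From 20 to 50 kb the values came down to 19.2 and 29.9 for all intervals, against 16.4 and 26.9 for medium peaks. Broad peaks had 20.0 and 32.7 there. The difference between narrow intervals and medium peaks was thus largest close to the peak. The rule favours this in part, because it clears p300 from a longer stretch in a medium peak than in a narrow interval. For an interval with a wide replicate peak, the first kb can also lie inside that replicate peak. Flanks were not cut at other H3K4me3 peaks, which lay within 1 kb of 11.9% of the narrow intervals and 3.88% of medium peaks. The p300 on such a neighbour counts in the flank, and where flanks overlap a p300 centre counts more than once.

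**Figure D4:**
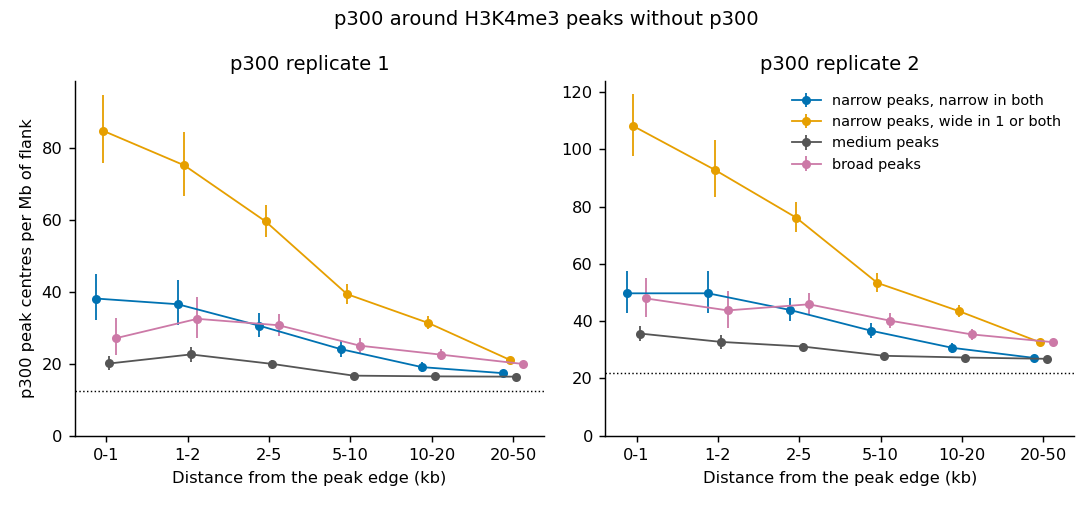
Peak centres of p300 per Mb of flank (y axis, points with Poisson 95% intervals) by distance from the edge of H3K4me3 peaks without p300 (x axis, kb), for p300 replicate 1 and replicate 2, with the mean over the chromosome spans as a dotted line. Narrow peaks with a wide replicate peak start at 84.8 and 108.1 per Mb, those narrow in both at 38.2 and 49.7, and medium peaks at 20.1 and 35.7. Broad peaks start at 27.1 and 47.9.

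The nearness to p300 followed the nearness to other H3K4me3 peaks. Among intervals within 5 kb of another H3K4me3 peak, 56.3% (53.5 to 58.9%) had p300 within 10 kb, compared with 42.8% (40.3 to 45.2%) of medium peaks with such a neighbour. The 56.3% includes all 442 intervals whose replicate peak met several others. Intervals narrow in both replicates had 47.1% (42.7 to 51.6%) and broad peaks without p300 had 44.8% (39.5 to 50.3%). The Wilson intervals of these 2 shares overlap that of the medium peaks. At 5 to 50 kb from H3K4me3 the shares were 25.8% (23.6 to 28.1%) of all narrow intervals and 15.5% (14.6 to 16.5%) of medium peaks. Broad peaks without p300 had 25.2% (22.8 to 27.9%) there, close to the narrow intervals. Intervals narrow in both replicates had 20.2% (17.6 to 23.1%). Over 50 kb from any other H3K4me3 peak 123 of 1027 narrow intervals and 344 of 3454 medium peaks, or 9.96%, had p300 within 10 kb, and the Wilson intervals of these shares overlap. In broad peaks without p300 that were equally remote the share was 22.0% (18.9 to 25.5%).

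A peak from the list of 1 p300 replicate lay on 457 intervals, or 12.1% (11.1 to 13.2%). It is called a single-replicate p300 peak for its list only. Whether it met a peak of the other replicate outside the interval was not tested, so it can belong to p300 found in both. The interval on 1S named above held a replicate 2 p300 peak, with a series-wide p300 peak 0.024 kb away. Replicate 1 supplied a p300 peak on 216 and replicate 2 on 246, and in 5 intervals each replicate had a peak but the peaks did not meet within the interval. Medium peaks without p300 more often had such a peak, 23.9% (23.1 to 24.7%), and broad ones more often still, 40.9% (38.8 to 43.1%), but they cover more bases each. Counted as p300 centres per kb, replicate 1 gave 0.132 (Poisson 95% interval 0.113 to 0.154) inside the narrow intervals, 0.0849 (0.0799 to 0.0902) inside medium and 0.0698 (0.0631 to 0.0771) inside broad peaks. Replicate 2 gave 0.105 (0.0876 to 0.124), 0.124 (0.118 to 0.130) and 0.111 (0.103 to 0.120), with no such order. The p300 libraries therefore did not give the same ranking of width classes.

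The most single-replicate p300 peaks on any interval was 2, reached by 14 intervals, while 443 held 1. The widest of the 14 lay on 6L from 128489708 to 128490301 and held both peaks from p300 replicate 2, with a series-wide p300 peak 0.051 kb away. On 7L from 54290306 to 54290883, and on 6L from 84835228 to 84835803, both were in p300 replicate 1, and the nearest replicate 2 peak was 10.7 and 15.2 kb away.

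Runs of narrow intervals without p300 were uncommon. When intervals no more than 5 kb apart were joined, 3440 stood alone and 330 fell into 156 runs. The longest run was on 9_10S from 3835624 to 3849257, with 5 intervals among 6 series-wide H3K4me3 peaks in 13.6 kb. That run also held 1 series-wide p300 peak. The next had 4 intervals each. They lay on 5L from 134936136 to 134945901, where 3 of 4 were narrow in both replicates, and on 6L from 39652662 to 39665641, where 1 of 4 was. A run of the same size on 7L spanned 50471140 to 50479673. No series-wide p300 peak lay in any of the runs of 4, and every H3K4me3 peak in them was a narrow interval.

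With gaps of up to 50 kb, 80 runs held 3 or more intervals, 343 in all, and the largest were on chromosomes 6L, 6S and 3L. They were singled out after their values had been seen. The largest held 14 intervals on 6L from 1664912 to 1915099, with 3 series-wide p300 peaks. The second held 12 on 6L from 39611682 to 39704085, among 14 series-wide H3K4me3 peaks with no series-wide p300 peak but 7 p300 replicate 2 peaks. On 6S, 11 intervals lay between 33699836 and 33832367 with 3 series-wide p300 peaks, and 9 between 998231 and 1198526 with 12. The 6L run of 12 was centred at 25.6% of the chromosome span and the 6S run of 11 at 26.3%. The runs of 14 and 9 were centred at 1.15% and 0.855%. A run of 11 on 3L, tied in size with that on 6S, reached from 129150746 to 129217293 at 89.6% of the span and held 5 series-wide p300 peaks. Xenopus laevis is an allotetraploid with a long (L) and a short (S) copy of each chromosome, and whether the 6L and 6S runs are homeologous places was not tested, as positions on these chromosomes could not be matched to genes.

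The intervals were more concentrated towards chromosome ends than wider peaks. In the outer 5% of the span at either end lay 17.2% (16.0 to 18.4%) of them, compared with 12.3% (11.7 to 12.9%) of the 12790 medium and broad peaks without p300. The narrow peaks with p300 had 15.7% (13.3 to 18.4%), which overlaps the share without p300, so the position was not particular to narrow peaks that lack p300. The share was higher for the narrow intervals on 17 of 18 chromosomes, the exception being 5S with 8.94% and 15.9%. It was highest on 6L, 30.4% against 15.4%, and on 6S, 27.7% against 15.3%. Without 6L the pooled shares were 16.2% (15.0 to 17.5%) and 12.1% (11.6 to 12.7%). The same was seen in each replicate list alone, with 17.9% against 13.1% in replicate 1 and 17.8% against 12.5% in replicate 2. It was also seen on each subgenome, with 16.7% against 11.95% on L and 17.7% against 12.8% on S. Narrow peaks found in 1 replicate only stood at 17.3% in replicate 1 and 18.7% in replicate 2. Intervals narrow in both replicates had 19.2% (17.5 to 21.0%), those with a wide replicate peak 15.1% (13.6 to 16.8%), and the 216 of favoured width 27.8% (22.2 to 34.1%). Of the 216, 54 lay on 6L, 6S and 3L, and their share was not taken chromosome by chromosome.

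The intervals were more numerous on the L than on the S chromosome in 8 of 9 pairs. The L chromosomes held 2079 and the S chromosomes 1691. Over the 9 chromosome pairs the log2 ratio of L to S counts was 0.31 ± 0.22 (mean and SD). Medium and broad peaks without p300, of which each chromosome held more, had 0.37 ± 0.09. The difference, -0.06 ± 0.19, was smaller than its spread over the pairs, and it was above 0 in 4 of 9 pairs. In pair 3 they leaned to L, where 3L held 250 and 3S held 154, and the log2 ratio was 0.70, compared with 0.43 for the wider peaks. In pair 8 they did not lean, with 191 on 8L and 192 on 8S, whereas the wider peaks had a ratio of 0.34. The L chromosomes were longer by a mean log2 ratio of 0.27 ± 0.10. Per Mb of span the ratio of the intervals was 0.04 ± 0.21, above 0 in 5 of 9 pairs. Density ranged from 1.28 per Mb on 3S to 1.94 on 8S.

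**Figure D5:**
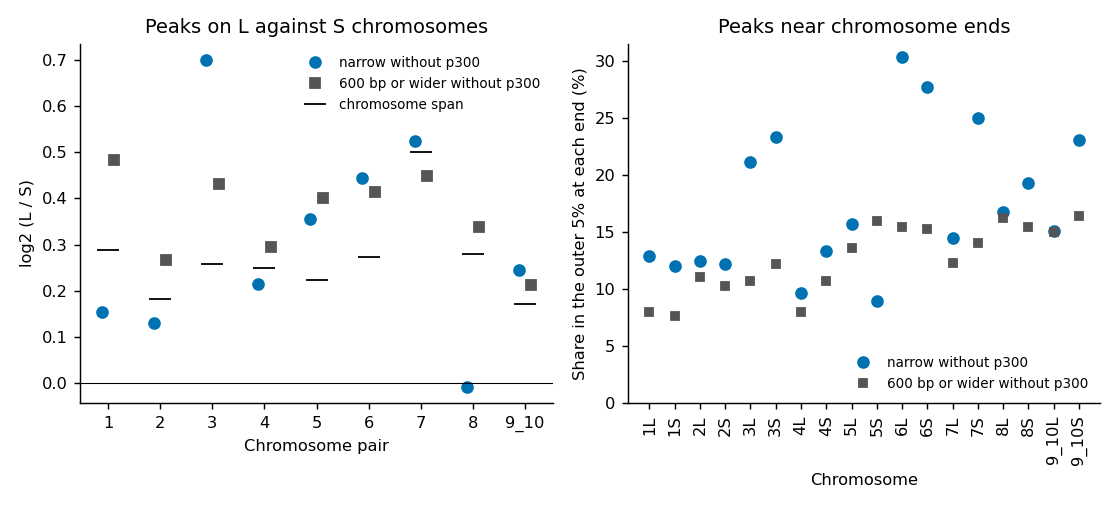
Left, log2 ratio of peaks on L to peaks on S (y axis) for each chromosome pair (x axis), for narrow and for wider peaks without p300, with the ratio of chromosome spans as a dash. Right, share of peaks in the outer 5% of the span at either end (y axis, %) by chromosome (x axis). The narrow peaks range from -0.01 in pair 8 to 0.70 in pair 3, and their share near the ends is highest on 6L and 6S.

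The intervals also differed among themselves by width. There were 155 from 50 bp to under 150 bp, 1711 from 150 bp to under 300 bp, 973 from 300 bp to under 450 bp and 931 from 450 bp to under 600 bp. The share that was narrow in both replicates was 59.4%, 68.2% and 48.7% in the first 3 classes, and in the widest class 168 of 931 were. An interval is never wider than either replicate peak, so few widths under 600 bp are left for both peaks of a wide interval. The low share in the widest class therefore follows in part from the rule. Within 5 kb of another H3K4me3 peak lay 49.7% (41.9 to 57.5%) of the narrowest class and 28.1% (25.3 to 31.1%) of the widest. A series-wide p300 peak lay within 10 kb of 40.6% (33.2 to 48.5%) of the narrowest class and 26.5% (23.8 to 29.5%) of the widest. In the outer 5% of the chromosomes lay 19.8% (17.99 to 21.8%) of the class from 150 bp to under 300 bp and 13.0% (11.0 to 15.3%) of the widest class. The narrowest class had 16.8% (11.7 to 23.4%), and its Wilson interval overlaps those of both.

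At the limits of the rule, the smallest interval was 51 bp, on 2S from 155734084 to 155734134, the overlap of a 370 bp replicate 1 peak with a 159 bp replicate 2 peak. Just outside stood a 49 bp overlap on 3S from 9786488 to 9786536, of a 173 bp and a 160 bp peak. At the upper limit, 15 intervals were 599 bp wide. One of them, on 1L from 197839626 to 197840224, had replicate peaks of 646 and 599 bp. A 600 bp interval outside the rule, on 1S from 79377749 to 79378348, had replicate peaks of 736 and 600 bp.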

How the data were processed

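ChIP-seq peak lists of H3K4me3 and p300 were used. The submitters' processing notes name BWA (0.7.10-r789), bedtools and MACS2 (2.1.0.20140616) without settings; the peak threshold, control, duplicate handling and genome build are not stated there. Each of the 6 lists the authors deposited (4 for single replicates, 2 series-wide) holds positions only, with no score, so depth is unknown. Groups came from sample titles, which do not say whether replicates came from separate clutches.

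Overlap meant at least 1 bp, and gaps ran from edge to edge. Coordinates count from 1, in the build of the files, which they do not name. Chromosome length was taken from the farthest peak end. No gene table could be matched to this build, so genes and sequences were not used. Python 3.11.15, numpy 2.4.6, pandas 2.3.3, scipy 1.17.1 and matplotlib 3.10.9 were used, and the overlap and gap functions, tested on simulated peaks, gave 0 wrong answers of 240 each. Wilson and Poisson intervals cover counting error only and treat peaks as independent. No test was run.

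The width and p300 limits and the comparison sets were chosen with earlier results of these data known. Regions were named by rule: the 3 most remote intervals narrow in both replicates, the 3 largest runs at 5 kb, the 3 with the widest replicate peak, the 3 with most single-replicate p300 peaks (widest first), and intervals at the width limits, of which some are printed. The tied run on 7L, the runs at 50 kb, the favoured widths with their 3 examples, and the shares near chromosome ends were chosen after their values were seen. Alternatives covered the width limits, the p300 rule, joining, and each replicate left out.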

Additional observations from a re-analysis of the deposited data

Results flagged for a closer look

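Outside the L and S chromosomes, 1215 further series-wide H3K4me3 intervals on 928 scaffolds met the same width and p300 limits. They were picked out because they lie in sequence that the comparisons did not use. They made up 44.1% (42.2 to 45.9%) of the 2757 H3K4me3 peaks on scaffolds, and 506 of them (41.6%, 38.9 to 44.4%) began at the first base of a scaffold. Narrow peaks of either kind were 49.3% (47.4 to 51.1%) of the scaffold peaks and 20.5% (20.0 to 21.1%) of those on the chromosomes.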

How the results depend on the processing

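Of 111 alternative values, 81 stayed within a limit set around the reported value and 30 did not. The limit was 1.5 times for the number of intervals, the Wilson interval for shares and the SD over pairs for L to S values. For median gaps it was the SD of the values with either replicate left out, 1.15 kb for H3K4me3 and 5.91 kb for p300. That SD is not an error of the reported value. With a limit of under 500 bp, 58.7% of the intervals were narrow in both replicates, and with under 800 bp 34.3% were. A replicate peak still counted as narrow only under 600 bp here. An interval of 600 bp or wider therefore cannot be narrow in both, and the lower share at 800 bp follows from the choice. With under 800 bp the median gap to H3K4me3 was 19.2 kb, 29.1% lay within 5 kb of H3K4me3 and 13.8% held a single-replicate p300 peak. The L to S difference turned to 0.02 there, within its spread of 0.19. Leaving out intervals with p300 within 1 kb gave 52.5% narrow in both, a median gap to p300 of 40.6 kb and 10.2% with a single-replicate p300 peak. Counting p300 only from 50% of the shorter interval raised that share to 16.6%. This limit lets in intervals that overlap a series-wide p300 peak by less. Such a peak comes from both p300 replicates, so the rise follows from the choice. Joining intervals closer than 500 bp could change nothing, as no gap was that small, and its values are counted among the 81.

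With the list of 1 replicate in place of a series-wide list, the count ranged from 3524 to 6645, the median gap to H3K4me3 from 13.9 to 15.8 kb, the share within 5 kb from 31.6 to 34.6%, the median gap to p300 from 10.4 to 37.0 kb and the share with a single-replicate p300 peak from 5.99 to 11.9%. When 1 p300 list set the rule, a single-replicate p300 peak could come from the other p300 replicate only. The low end of that last range therefore follows in part from the choice. The share narrow in both replicates could not be had from 1 H3K4me3 list, nor the single-replicate p300 share when both p300 lists set the rule.

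Other alternatives were chosen after seeing the data. Joining intervals closer than 1 kb gave 55.4% narrow in both, gaps of 20.2 kb to H3K4me3 and 37.9 kb to p300, and 25.3% within 5 kb. Leaving out replicate peaks that met several others gave 57.1%, 20.1 kb, 38.2 kb and 25.4%. The 1901 intervals narrow in both had gaps of 21.0 and 45.7 kb, 24.8% within 5 kb and 10.8% with a single-replicate p300 peak. Unknown depth and thresholds limit all these values.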
